A study of Homo sapiens with 6 samples.

Results

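Collagen genes were read for 2 histone marks in GATA2-positive endothelial cells made from H1, an established human embryonic stem cell line; GATA2 is a transcription factor of the blood and vessel lineages. The genes were all protein-coding genes on chromosomes 1 to 22 with a symbol of the form COL, number, A, number in a RefSeq gene table of GRCh38, and they numbered 42 of 19122 protein-coding genes on these chromosomes. They comprised 11 fibrillar chains, 6 chains of basement membranes (the autosomal type IV chains with types XV and XVIII) and 25 other chains. Derivation had been with or without Vc, read here as the vitamin C of the series title. For each condition H3K27me3 and H3K4me3 were measured in 1 chromatin immunoprecipitation library each, from cells labelled Vc+ or Vc-. All cells came from this 1 line with no other genotype in the labels. The series has 6 samples, and the 2 inputs were left aside. Before any result it has to be said that each of the 4 island files carries in its name the other condition than its sample label. Groups follow the labels, the libraries are called the Vc+ and Vc- libraries by them, and each direction between conditions turns round if the file names are right. The design text also speaks of cells with and without a GATA2 reporter, and the protocol names an H3K27me3 antibody only; the labels name either mark.

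A collagen is a protein of 3 chains wound into a triple helix. Fibrillar collagens build the fibres of bone, tendon, skin and vessel walls, and type IV collagen forms the sheet under endothelium and epithelium. Vitamin C is a cofactor of the prolyl and lysyl hydroxylases that stabilise the helix, and also of the JmjC demethylases that remove methyl groups from histones. H3K27me3 is placed by the Polycomb repressive complex PRC2 and H3K4me3 lies at active promoters, and many developmental promoters in embryonic stem cells carry both, a state called bivalent.

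The deposited data were lists of islands, stretches of enriched windows of 200 bp. On chromosomes 1 to 22 the Vc+ and Vc- libraries had 9534 and 8893 H3K27me3 islands, and 21311 and 21583 H3K4me3 islands. Of these, 22 (Vc+) and 21 (Vc-) H3K27me3 islands and 44 (Vc+) and 48 (Vc-) H3K4me3 islands lay at collagen genes. Read depth is unknown from these lists. With 1 library per mark and condition there was no spread between cultures to test against, so no test and no p-value are given, and each difference is one between 2 libraries. By the gene windows used below, 77.8% of all genes had H3K4me3 in both conditions and 19.9% had H3K27me3 in both. H3K4me3 was called in both conditions at 10 of 10 endothelial marker genes, among them KDR and PECAM1. Of these, ERG, ESAM and SOX17 also had H3K27me3 in both conditions, CDH5 in the Vc+ library alone and FLI1 in the Vc- library alone. Of 12 mesenchymal and mural markers, 6 had H3K4me3 in both conditions (ACTA2, PDGFRA, PRRX1, RGS5, TAGLN and TWIST1), CSPG4 in the Vc+ library alone, and DCN, LUM, PDGFRB, POSTN and TWIST2 in neither. Among blood markers, CD34, CD44, ITGA2B and SPI1 had it in both and PTPRC in neither, and all 5 epithelial markers had it in both. Of 4 pluripotency genes, DPPA4 and LIN28A had it in both conditions, POU5F1 in the Vc+ library alone and NANOG in neither. At POU5F1 only 0.264 kb of the gene window was covered, up to its outer edge. Outside the endothelial markers, H3K27me3 was called in both conditions at PDGFRA, PRRX1, TWIST1, CD44, ITGA2B, CDH1, EPCAM and ESRP1. CD34 had H3K27me3 in the Vc+ library alone, and none of the 4 pluripotency genes had it in either library. An island therefore does not by itself separate endothelial genes from those of other cells, and fewer cells of a type cannot be told apart from less of a mark per cell.

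A mark was assigned to a gene if at least 1 bp of an island fell within the gene span or the 5 kb next to either end. H3K27me3 was called at 20 of 42 collagen genes in the Vc+ library, which is 47.6% (exact 95% interval 32.0 to 63.6, counting error only), against 24.2% of all protein-coding genes. In the Vc- library it was called at 19, or 45.2% (29.9 to 61.3), against 22% of all genes. H3K4me3 was called at 31 collagen genes with Vc (73.8%, 58.0 to 86.1) against 78.8% of all genes, and at 34 without it (81.0%, 65.9 to 91.4) against 78.7%. Collagen genes are long, with a median span of 133 kb against 24.5 kb over all genes, and a long window holds more islands. The 5′ end alone, with 1 kb on either side, does not depend on gene length and could be read for the 30 members that have an entry in a RefSeq promoter table. There H3K27me3 was called at 14 of 30 (46.7%) in the Vc+ library and 12 of 30 (40.0%) in the Vc- library, against 14.7% and 13.4% of 15100 genes with an entry. H3K4me3 was called at 20 (66.7%) and 21 (70.0%) of the 30, against 72.7% and 72.4%. The H3K27me3 share of the family was thus above that of all genes with either window, and the H3K4me3 share was near it.

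**Figure D1:**
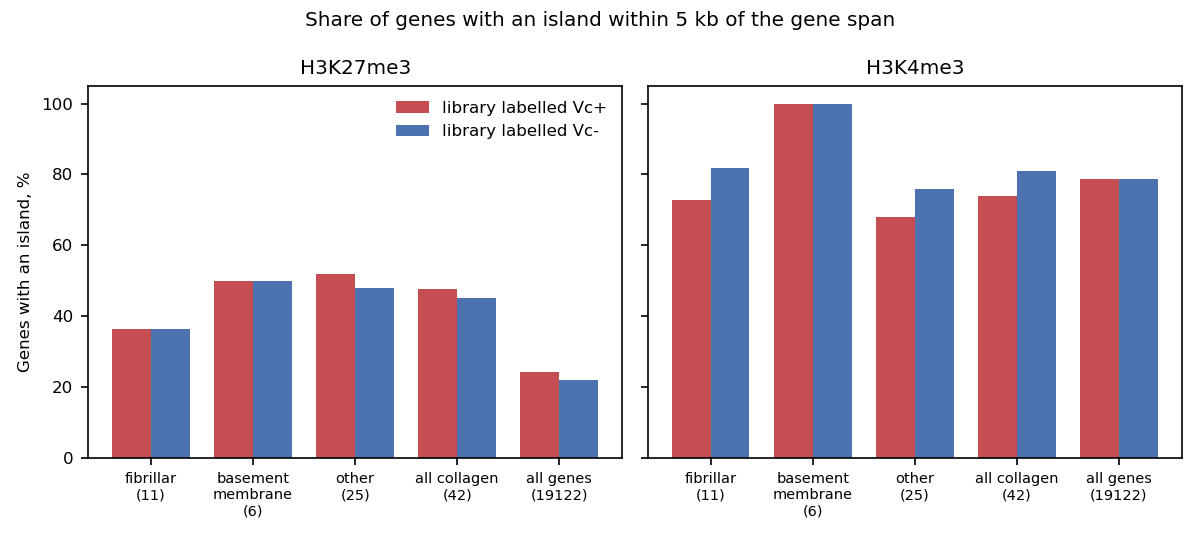
Bars give the percentage of genes with an island within 5 kb of the gene span for H3K27me3 (left) and H3K4me3 (right), by collagen class and over all protein-coding genes, with the number of genes in brackets. There is 1 library per bar and no error bar. For H3K27me3 the bars of all 42 collagen genes stand at 47.6% (Vc+) and 45.2% (Vc-), above 24.2% and 22% of all genes.

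Most members had the same call in both conditions. H3K27me3 was present in both at 18 genes (42.9%, against 19.9% of all genes), in neither at 21 (73.6% of all genes), in Vc+ alone at 2 (4.36% of all genes) and in Vc- alone at 1 (2.13% of all genes). H3K4me3 was present in both at 30 genes (71.4%, against 77.8% of all genes), in neither at 7 (20.3% of all genes), in Vc+ alone at 1 (1.04% of all genes) and in Vc- alone at 4 (0.894% of all genes). Together the marks gave 18 collagen genes with both in the Vc+ pair and 17 in the Vc- pair, against 22.5% and 20.4% of all genes. H3K4me3 stood alone at 13 and 17 (56.3% and 58.2% of all genes), H3K27me3 alone at 2 in each pair (1.73% and 1.58%), and neither mark at 9 and 6 (19.4% and 19.7%). Where both marks were called, their islands overlapped at 18 of 18 genes with Vc, against 85.9% of all genes with both marks. They overlapped at 17 of 17 genes without it, against 85.6%. Within 1 kb of the 5′ end, H3K27me3 was present in both conditions at 12 of the 30 genes (12.2% of all genes), in Vc+ alone at 2 (2.51%), in Vc- alone at 0 (1.18%) and in neither at 16 (84.1%). H3K4me3 was present there in both at 20 (71.6%), in Vc+ alone at 0 (1.11%), in Vc- alone at 1 (0.735%) and in neither at 9 (26.5%). Both marks stood there at 13 genes in the Vc+ pair and 11 in the Vc- pair (13.2% and 11.7% of all genes). H3K27me3 stood alone at 1 and 1 (1.48% and 1.61%), H3K4me3 alone at 7 and 10 (59.5% and 60.6%), and neither at 9 and 8 (25.8% and 26.0%). The overlap of the marks, in the wider window, covered a median of 1.6 kb (1.0 to 6.2) in the Vc+ pair and 1.2 kb (0.6 to 4.4) in the Vc- pair.

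**Figure D2:**
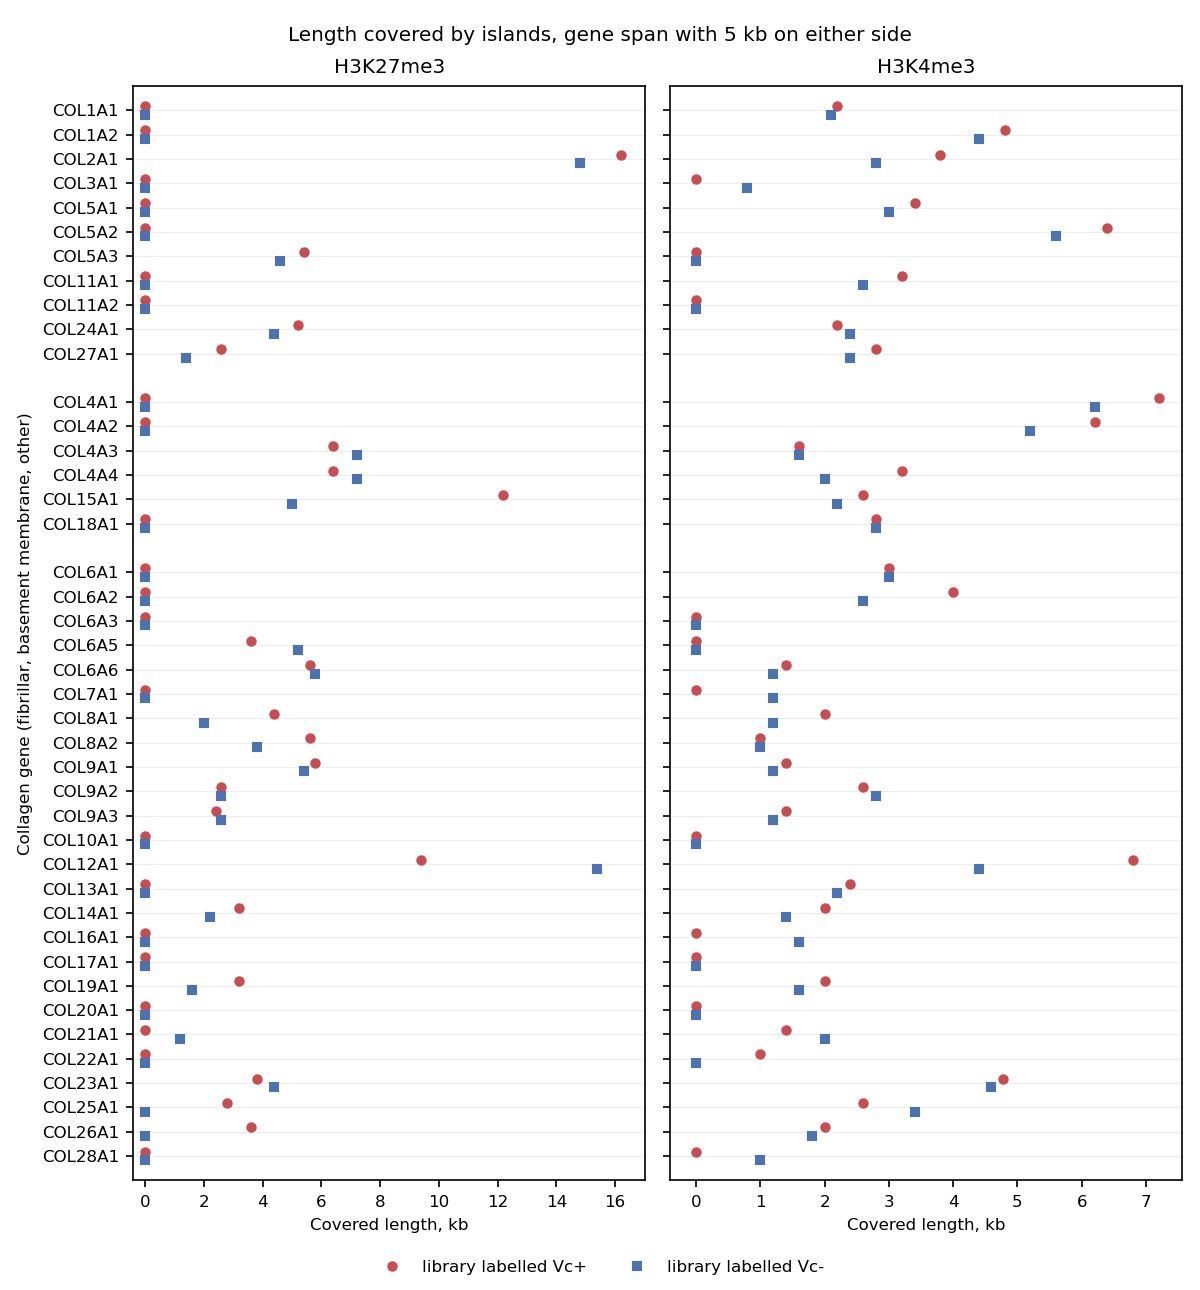
Each row is 1 of the 42 collagen genes and each point the length in kb covered by islands of 1 library within the gene span and 5 kb on either side, for H3K27me3 (left) and H3K4me3 (right, with its own scale). COL2A1, COL15A1 and COL12A1 have the longest H3K27me3 coverage in the Vc+ library, at 16.2, 12.2 and 9.4 kb.

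Among the fibrillar chains the marks split the family by chain. COL1A1 and COL1A2 encode the chains of type I collagen, the main collagen of bone, skin and vessel walls, and both carried H3K4me3 and no H3K27me3 in either condition. At COL1A2 (NCBI gene 1278, GRCh38 chromosome 7, 94394895 to 94431227) the H3K4me3 island was 4.8 kb wide in the Vc+ library (94393601 to 94398400) and 4.4 kb in the Vc- library (94393601 to 94398000), over the lower-coordinate end. Their deposited scores lay at percentiles 94.8 and 86.9 of their own lists. The islands at COL1A1, beside its higher-coordinate end, were narrower, 2.2 kb with Vc (chromosome 17, 50199401 to 50201600) and 2.0 kb without (50199601 to 50201600), and their percentiles were 34.8 and 43.5. The partner chains of type I collagen thus differed in island width and rank within each library. A further island of 1.2 kb in the Vc- list lay below the lower end of COL1A1, with a score of 9.0.

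COL3A1, the type III chain of extensible tissues such as arteries, had no island of either mark in the Vc+ libraries. In the Vc- library it had 1 H3K4me3 island of 0.8 kb with a score of 2.26, at the 0.437th percentile of its list, and the nearest Vc+ island was 201 kb away. That call is among the weakest in its list and is lost at a score of at least 10. COL5A1 and COL5A2, chains of type V collagen that set fibril diameter, carried H3K4me3 alone in both conditions. At COL5A1 the islands at the start were 2.8 kb and 2.0 kb wide in the Vc+ and Vc- libraries, running 2.2 kb and 1.2 kb into the gene. COL5A2 had an island of 4.2 kb and 3.6 kb inside its listed span of 409 kb. Another, of 2.2 kb and 2.0 kb, lay at its higher-coordinate end and within 1 kb of an end of the neighbouring gene WDR75. COL5A2 has no promoter entry, so neither island could be placed against a start of the gene. COL11A1, a type XI chain of cartilage, likewise carried H3K4me3 alone, with islands of 3.2 kb and 2.6 kb over its start.

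COL5A3, the third type V chain, differed from both: it carried H3K27me3 and no H3K4me3 in either condition. Its H3K27me3 island over the start was 3.0 kb wide with Vc (chromosome 19, 10009401 to 10012400) and 3.0 kb without (10009801 to 10012800), and a second, of 2.4 kb and 1.6 kb, lay 42.5 kb and 43.5 kb downstream inside the gene. The Vc- island over the start also lay within 1 kb of an end of the gene RDH8. Only 1.73% and 1.58% of all genes had H3K27me3 without H3K4me3 in the Vc+ and Vc- pairs, and COL6A5 was the other such collagen gene. COL2A1, which encodes the type II collagen of cartilage, had the widest H3K27me3 island of the family, 37.4 kb in the Vc+ library (chromosome 12, 47995001 to 48032400) and 29.0 kb in the Vc- library (47996401 to 48025400). Either island covered the higher-coordinate end of the gene (47972967 to 48006212) and reached beyond the 5 kb flank. Inside it lay 2 short H3K4me3 islands, of 2.4 and 1.4 kb with Vc and of 1.0 and 1.8 kb without. COL24A1 and COL27A1, minor fibrillar chains, carried both marks within 1 kb of their starts in both conditions. At COL24A1 the H3K27me3 was 1 island of 5.2 kb across the start in the Vc+ library, and 2 islands of 2.0 and 2.4 kb on either side of it in the Vc- library. At COL27A1 it was 2.6 kb wide with Vc and 1.4 kb without, the Vc- island ending just before the start. COL11A2 had no island of either mark. Over the 11 fibrillar genes H3K27me3 was called at 4 in each library (36.4%, against 24.2% of all genes in the Vc+ library and 22% in the Vc- library). H3K4me3 was called at 8 with Vc (72.7%, against 78.8% of all genes) and at 9 without (81.8%, against 78.7%), shares near those of all genes.

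The 6 basement membrane genes all carried H3K4me3 in both conditions (exact 95% interval 54.1 to 100%, against 77.8% of all genes). H3K27me3 was called in both at 3 of them (11.8 to 88.2%, against 19.9%), of which 2 share 1 island. COL4A1 and COL4A2 encode the chains of the common type IV network of vessel walls. They stand head to head on chromosome 13 with their starts 127 bp apart, and share 1 H3K4me3 island of 5.4 kb in the Vc+ library (110304201 to 110309600) and of 5.2 kb in the Vc- library (110304601 to 110309800). Both islands had the capped score of 1000, and no H3K27me3 island was called within 5 kb of either gene. Weaker H3K4me3 islands lay inside COL4A1 (1.8 kb with Vc and 1.0 kb without) and, in the Vc+ library alone, inside COL4A2 (0.8 kb). COL4A3 and COL4A4 encode chains of the network of the kidney glomerulus, lung and inner ear. They also stand head to head, on chromosome 2 with the most upstream starts 419 bp apart, and they shared an H3K27me3 island in both conditions. It was 6.4 kb wide with Vc (227161001 to 227167400) and 7.2 kb without (227159801 to 227167000). An H3K4me3 island of 1.6 kb, with the same ends in both libraries (227163601 to 227165200), lay inside it over both starts. Paired genes share their islands and are not independent members of the counts above.

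COL15A1, the type XV chain, a proteoglycan that links basement membranes to the tissue beneath, carried both marks in both conditions. Its H3K27me3 island over the start was 9.0 kb wide in the Vc+ library (chromosome 9, 98941401 to 98950400) and 5.0 kb in the Vc- library (98941801 to 98946800). Most of the extra length lay inside the gene, where the Vc+ island ran 6.49 kb past the start and the Vc- island 2.89 kb. The Vc+ library had a second island of 3.2 kb, 50.7 kb into the gene, with a score of 4.99, and the H3K4me3 islands were 2.6 kb and 2.2 kb wide. COL18A1, the type XVIII chain whose C-terminal fragment is endostatin, carried H3K4me3 alone, with islands of 2.8 kb and 2.8 kb over its most upstream start. Its other listed start, 50.4 kb downstream, had no island of either mark within 1 kb.

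**Figure D3:**
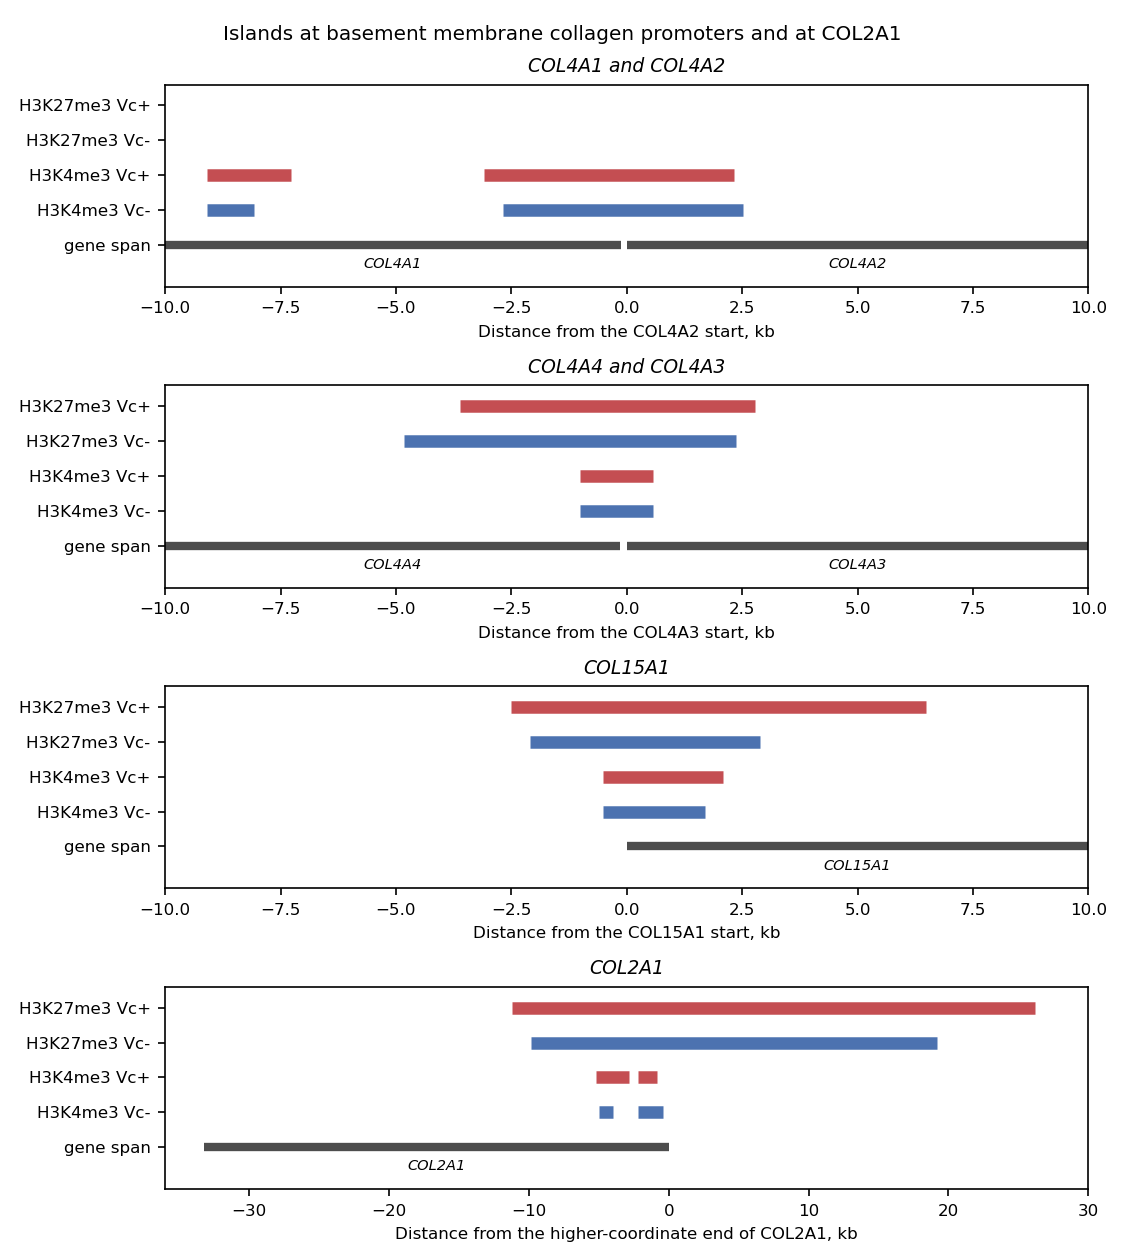
Horizontal bars show islands of each library around 4 collagen loci, with distance in kb on the x axis and gene spans in grey below. The islands at COL4A1 and COL4A2 are H3K4me3 alone, 5.4 kb and 5.2 kb wide at the shared start, those at COL4A3 with COL4A4 and at COL15A1 carry H3K4me3 inside H3K27me3, and H3K27me3 at COL2A1 spans 37.4 kb and 29.0 kb.

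The promoter sequences of 5 of these genes and of COL17A1, from RefSeq (GRCh38.p14), are shown because these loci span the mark states of the family. Each runs 5′ to 3′ on the gene's own strand from 250 bases before the start to 50 bases after it, with each CpG in capitals. COL4A2 (chr13:110307034-110307333, plus strand) and COL18A1 (chr21:45404915-45405214, plus strand) had H3K4me3 alone. COL4A3 (chr2:227164374-227164673, plus strand) and COL15A1 (chr9:98943657-98943956, plus strand) had both marks. COL5A3 (chr19:10010455-10010754, minus strand) had H3K27me3 alone. COL17A1 (chr10:104085831-104086130, minus strand), chosen after its values were seen, had neither.
COL4A2: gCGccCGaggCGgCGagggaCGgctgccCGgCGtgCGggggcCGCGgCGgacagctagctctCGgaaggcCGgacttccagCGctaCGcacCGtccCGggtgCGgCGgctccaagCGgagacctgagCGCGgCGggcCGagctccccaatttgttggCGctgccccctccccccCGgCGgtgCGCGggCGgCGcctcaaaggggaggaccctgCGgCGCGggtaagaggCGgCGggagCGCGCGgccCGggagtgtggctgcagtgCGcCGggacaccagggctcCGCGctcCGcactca
COL18A1: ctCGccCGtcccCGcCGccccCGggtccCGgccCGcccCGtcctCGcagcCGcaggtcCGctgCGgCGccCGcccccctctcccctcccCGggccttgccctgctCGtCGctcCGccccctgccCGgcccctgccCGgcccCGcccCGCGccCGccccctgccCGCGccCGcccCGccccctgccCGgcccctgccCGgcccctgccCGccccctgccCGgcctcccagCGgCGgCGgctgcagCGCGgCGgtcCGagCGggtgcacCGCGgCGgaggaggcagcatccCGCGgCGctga
COL4A3: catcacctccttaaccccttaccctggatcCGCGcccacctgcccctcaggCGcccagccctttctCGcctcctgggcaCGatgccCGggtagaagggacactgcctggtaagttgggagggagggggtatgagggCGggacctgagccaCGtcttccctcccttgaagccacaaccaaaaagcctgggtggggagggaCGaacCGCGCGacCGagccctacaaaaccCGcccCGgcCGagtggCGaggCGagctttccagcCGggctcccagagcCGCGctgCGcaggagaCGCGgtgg
COL15A1: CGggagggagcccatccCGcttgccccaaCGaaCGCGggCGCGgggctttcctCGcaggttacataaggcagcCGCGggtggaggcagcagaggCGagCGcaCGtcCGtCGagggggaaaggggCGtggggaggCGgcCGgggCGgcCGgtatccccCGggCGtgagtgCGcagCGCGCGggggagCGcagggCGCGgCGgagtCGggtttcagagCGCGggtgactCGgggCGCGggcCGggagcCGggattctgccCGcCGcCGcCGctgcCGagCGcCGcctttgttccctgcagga
COL5A3: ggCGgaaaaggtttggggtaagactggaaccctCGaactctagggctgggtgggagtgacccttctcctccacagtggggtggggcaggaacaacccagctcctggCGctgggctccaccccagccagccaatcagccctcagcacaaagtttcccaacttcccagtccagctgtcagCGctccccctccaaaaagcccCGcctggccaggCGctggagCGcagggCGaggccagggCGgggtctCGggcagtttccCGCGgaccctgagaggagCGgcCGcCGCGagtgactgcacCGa
COL17A1: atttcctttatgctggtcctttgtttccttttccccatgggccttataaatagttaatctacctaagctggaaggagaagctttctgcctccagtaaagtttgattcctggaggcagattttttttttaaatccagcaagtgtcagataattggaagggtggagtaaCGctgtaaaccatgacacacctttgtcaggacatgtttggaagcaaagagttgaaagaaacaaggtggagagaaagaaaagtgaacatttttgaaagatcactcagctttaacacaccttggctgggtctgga
These windows held 45 CpGs at COL4A2, 46 at COL18A1, 24 at COL4A3, 45 at COL15A1, 17 at COL5A3 and 1 at COL17A1. COL15A1, with H3K27me3, and COL18A1, without it, were thus nearly equal in CpG number.

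Over the 30 members with a promoter entry the CpG count per 300 bases ranged from 1 to 46, with a median of 23, against 22 over 15100 genes. Promoters with both marks within 1 kb of the most upstream start held a median of 29 CpGs in the Vc+ pair (13 genes, 11 to 45) and 28 in the Vc- pair (11 genes, 11 to 45). Those with H3K4me3 alone held a median of 36 in either pair (7 genes with Vc and 10 without, 12 to 46), and those with neither mark a median of 4 with Vc (9 genes, 1 to 22) and 3.5 without (8 genes, 1 to 17). Over all genes the corresponding medians in both pairs were 29 and 28, 27 and 27, and 4 and 4. Read at the most upstream start, most collagen promoters without a mark were therefore CpG-poor like those of other genes. COL10A1, COL17A1 and COL28A1 had 1 CpG each. Marked promoters with and without H3K27me3 overlapped in CpG number. Exceptions without a mark were COL11A2 with 16 CpGs, COL7A1 with 17 and, in the Vc+ pair, COL16A1 with 22. Another listed start of COL11A2, 0.382 kb downstream, held 37 CpGs and had no island of either mark within 1 kb. COL9A1 and COL21A1, with 3 and 4 CpGs, counted as unmarked by their most upstream starts. Their internal starts that carried marks held 16 and 14 CpGs. The CCAAT box (letters CCAAT, either strand) was found in 7 of 30 windows, among them COL4A1, COL4A2 and COL5A3, which is 23.3% against 36.0% of all promoters. The GC box (GGGCGG, either strand) was found in 17 (56.7% against 58.7%) and TATAAA in 5 (16.7% against 9.83%). Each GC box holds a CpG, and a match is a run of letters only. The windows of COL4A1 and COL4A2 overlap, as do those of COL4A3 and COL4A4, so paired genes can share CpGs and matches. The CCAAT in the window printed for COL4A2 also lies in that of COL4A1. The members without an entry were COL1A1, COL1A2, COL2A1, COL3A1, COL5A2, COL6A1, COL6A5, COL8A1, COL9A3, COL14A1, COL20A1 and COL22A1.

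**Figure D4:**
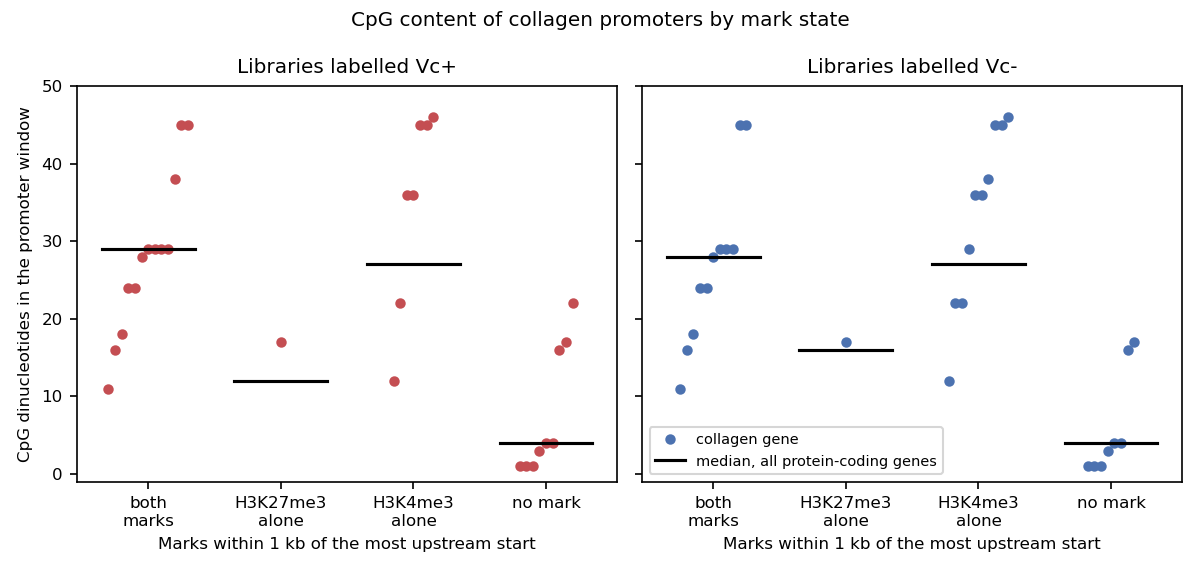
Points give the number of CpG dinucleotides in the promoter window of each of the 30 collagen genes with an entry, grouped by the marks called within 1 kb of the most upstream start, for the Vc+ pair (left) and the Vc- pair (right). Points are spread sideways in order of value, and black lines are medians over all protein-coding genes. The unmarked collagen promoters have a median of 4 CpGs with Vc and 3.5 without, and those with H3K4me3 alone a median of 36 in both.

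The type IX chains, which coat the fibrils of cartilage, carried both marks in both conditions. At COL9A2 the H3K27me3 islands were 2.6 kb wide in either library, and at COL9A3 2.4 kb with Vc and 2.6 kb without. COL9A1 is made in a long and a short form from separate starts. At COL9A1 no island lay within 1 kb of the most upstream start. The H3K27me3 islands, 5.8 kb (Vc+) and 5.4 kb (Vc-), and the H3K4me3 islands, 1.4 kb and 1.2 kb, lay over the second listed start, 19.9 kb downstream. Both windows are shown because the start that carries the marks differs from the one that does not: the most upstream start (chr6:70303035-70303334, minus strand) has 3 CpGs and the internal one (chr6:70283148-70283447, minus strand) 16. COL9A1 was chosen for printing after its values were seen.
COL9A1 most upstream start: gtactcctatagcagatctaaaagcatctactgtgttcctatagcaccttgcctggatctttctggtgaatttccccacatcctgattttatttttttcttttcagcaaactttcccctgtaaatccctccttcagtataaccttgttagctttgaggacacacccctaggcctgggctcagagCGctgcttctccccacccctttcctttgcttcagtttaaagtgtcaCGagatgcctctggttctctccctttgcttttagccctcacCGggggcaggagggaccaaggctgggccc
COL9A1 internal start: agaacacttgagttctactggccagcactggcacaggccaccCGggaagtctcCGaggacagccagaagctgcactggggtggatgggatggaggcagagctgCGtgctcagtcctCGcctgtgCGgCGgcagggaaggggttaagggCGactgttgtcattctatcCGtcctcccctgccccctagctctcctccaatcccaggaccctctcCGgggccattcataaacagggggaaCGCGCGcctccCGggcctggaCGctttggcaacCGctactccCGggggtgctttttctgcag
COL21A1, another chain of the same fibril-associated group, also had its marks at an internal start, 147 kb downstream of the most upstream one, with 14 CpGs against 4. There the H3K4me3 island was 1.4 kb wide in both conditions, and H3K27me3 was called in the Vc- library alone.

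COL12A1, a fibril-associated collagen of tendon and fascia, had the highest H3K27me3 score of these other chains in either list. The island over its start was 9.4 kb wide with Vc (chromosome 6, 75200201 to 75209600) and 11 kb without (75199801 to 75210800), at percentiles 95.6 and 96.0 of their lists. Within it lay 3 H3K4me3 islands in each library, the widest of 4.0 kb and 3.0 kb. The Vc- library had another H3K27me3 island of 4.4 kb, with a score of 9.92, at the opposite end of the gene, and the nearest Vc+ island was 114 kb from it. COL14A1 and COL19A1, fibril-associated chains, carried both marks in both conditions, with H3K27me3 islands of 3.2 and 3.2 kb with Vc and of 2.2 and 1.6 kb without.

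The type VI chains, which form beaded filaments around cells, fell into all 4 states. COL6A1 and COL6A2 carried H3K4me3 alone in both conditions, with islands of 3.0 kb in either library at COL6A1, and of 4.0 kb with Vc and 2.6 kb without at COL6A2. COL6A3, the partner chain of both in type VI collagen, had no island of either mark, and its promoter window held 4 CpGs. COL6A5 had H3K27me3 alone, 3.6 kb wide with Vc and 5.2 kb without, and COL6A6 had both marks, with H3K27me3 islands of 5.6 kb and 5.8 kb. Chains of 1 molecule therefore did not share 1 state.

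COL8A1 and COL8A2, the short chains of the type VIII network found under corneal and vascular endothelium, both carried both marks. H3K27me3 at COL8A1 was 4.4 kb wide in the Vc+ library and 2.0 kb in the Vc- library, and at COL8A2 it was 5.6 kb and 3.8 kb. The H3K4me3 islands were 2.0 kb and 1.2 kb at COL8A1, and 1.0 kb in both libraries at COL8A2. Of the membrane-spanning collagens, COL13A1 carried H3K4me3 alone, with islands of 2.4 kb and 2.2 kb, COL23A1 both marks in both conditions, and COL17A1, the collagen of the hemidesmosome of skin, neither. COL23A1 had 5 H3K4me3 islands in the Vc+ library and 4 in the Vc- library, of which 1 in each lay in the flank near an end of the gene PHYKPL. The island over its start was 2.2 kb (Vc+) and 2.0 kb (Vc-) wide, and an H3K27me3 island of 3.6 kb covered the start in the Vc+ library. In the Vc- library the H3K27me3 island, of 4.4 kb, began 0.393 kb downstream of the start. COL10A1, the chain of hypertrophic cartilage, and COL20A1 had no island of either mark.

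**Figure D5:**
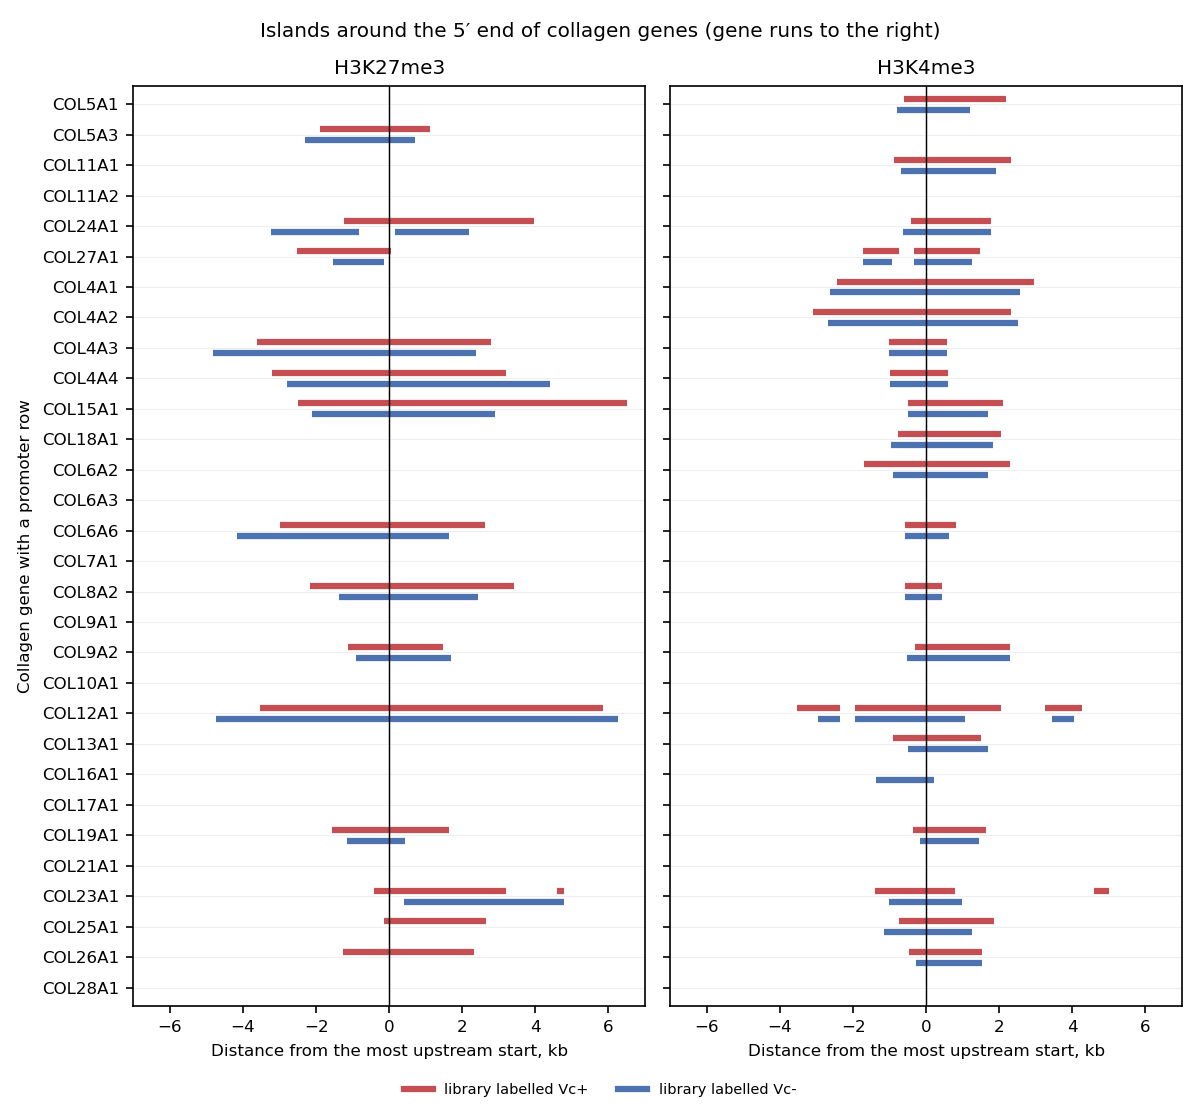
Horizontal bars are islands within 7 kb of the most upstream listed start of the 30 collagen genes with a promoter entry, for H3K27me3 (left) and H3K4me3 (right), with distance in kb on the x axis and the gene running to the right. H3K27me3 islands over a start reach a median of 2.04 kb upstream and 2.72 kb downstream in the Vc+ library and 2.3 kb and 2.38 kb in the Vc- library, further than the H3K4me3 islands.

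The calls that differed between conditions fell at 8 genes. H3K27me3 was called in the Vc+ library alone at COL25A1, a membrane-spanning collagen of neurons, and at COL26A1. At COL25A1 the island was 2.8 kb wide with a score of 12.9 (chromosome 4, 109300001 to 109302800), ran from 0.142 kb before the start to 2.66 kb after it, and had its nearest Vc- island 536 kb away. At COL26A1 it was 3.6 kb wide with a score of 8.35 (chromosome 7, 101361601 to 101365200), across the start, with the nearest Vc- island 58.4 kb away. Both genes carried H3K4me3 in both conditions, 2.6 kb with Vc and 2.4 kb without at the start of COL25A1, and 2.0 kb and 1.8 kb at COL26A1. They therefore read as both marks by the Vc+ lists and as H3K4me3 alone by the Vc- lists. COL21A1 read the other way, with an H3K27me3 island of 1.2 kb and a score of 6.78 in the Vc- library (chromosome 6, 56247401 to 56248600) and the nearest Vc+ island 355 kb away. Of all genes, 4.36% had H3K27me3 in the Vc+ library alone and 2.13% in the Vc- library alone, and 2 and 1 of 42 collagen genes are close to these shares.

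H3K4me3 was called in the Vc+ library alone at COL22A1, a chain of tissue junctions, in an island of 1.0 kb with a score of 10.1 whose nearest Vc- island was 416 kb away. It was called in the Vc- library alone at COL3A1, COL7A1, COL16A1 and COL28A1. These are 2.38% (Vc+ alone) and 9.52% (Vc- alone) of the 42 genes, against 1.04% and 0.894% of all genes. Within 1 kb of the 5′ end only COL16A1 kept such a call, 1 of 30 genes (3.33%, against 0.735% of all genes). COL3A1 and COL22A1 have no promoter entry and could not be read there. At COL16A1, a fibril-associated chain, the island was 1.6 kb wide with a score of 16.2 (chromosome 1, 31703801 to 31705400), over the start, and the nearest Vc+ island was 9.0 kb away. That of COL28A1, of 1.0 kb, lay 69.9 kb inside the gene with a score of 6.13. At COL7A1, the anchoring fibril collagen of skin, the island of 1.2 kb lay outside the gene span, within 1 kb of an end of UCN2, and a Vc+ island lay 2.0 kb from it. The H3K4me3 islands behind these 5 calls scored 2.26 to 16.2, against medians of 70.1 over all islands of the Vc+ library and 73.1 over those of the Vc- library. The 3 H3K27me3 islands scored 6.78 to 12.9, against medians of 10.3 and 10.0.

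Covered length was compared at the genes called in both conditions. For H3K27me3 it was longer in the Vc+ library at 10 of 18 collagen genes, longer in the Vc- library at 7 and equal at 1, against 64.1% and 27.9% of 3802 such genes in all. The median of the 18 was 5.3 kb with Vc and 4.5 kb without, and over all such genes 5.4 kb and 4.6 kb. The Vc+ length was well above the Vc- length at COL15A1 (12.2 kb Vc+, 5.0 kb Vc-) and COL8A1 (4.4 kb Vc+, 2.0 kb Vc-), and below it at COL12A1 (9.4 kb Vc+, 15.4 kb Vc-) and COL6A5 (3.6 kb Vc+, 5.2 kb Vc-). For H3K4me3 it was longer with Vc at 22 of 30, longer without it at 4 and equal at 4, against 59.7% and 27% of 14875 genes. Medians were 2.6 kb and 2.4 kb for the collagen genes, and 3.0 kb and 2.6 kb for all genes. The Vc+ lists covered more of the genome as a whole, 51.1 Mb (Vc+) against 40.2 Mb (Vc-) for H3K27me3 and 46.8 Mb (Vc+) against 42 Mb (Vc-) for H3K4me3. The part of this covered length in these differences was not tested.

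Width and rank were also read by class. H3K27me3 islands had median widths of 3.0 kb (fibrillar, 5 islands), 6.4 kb (basement membrane, 3) and 3.6 kb (other, 14) in the Vc+ library, against 4.0 kb over its whole list. In the Vc- library the medians were 2.2 kb (6 islands), 6.1 kb (2) and 3.8 kb (13), against 3.2 kb. The median collagen island stood at percentile 73.6 of H3K27me3 scores in the Vc+ list and 70.5 in the Vc- list, where the whole list has its median at a score of 10.3 and 10.0. For H3K4me3 the median collagen island stood at percentile 41.6 with Vc and 39.9 without. H3K4me3 widths had medians of 2.2, 1.7 and 1.6 kb for the 3 classes in the Vc+ library, against 1.8 kb over its whole list. In the Vc- library they were 1.9, 1.9 and 1.2 kb, against 1.6 kb.

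Genes that process or bind collagen were set beside the chains. Of 34 such genes, H3K4me3 was called in both conditions at 32 (77.8% of all genes). LOXL4, a lysyl oxidase, had it in the Vc+ library alone (1.04% of all genes), over 1.79 kb reaching the outer edge of the window. DDR1, a collagen receptor kinase, had it in the Vc- library alone (0.894% of all genes). H3K27me3 was called in both at 11 (19.9% of all genes) and in neither at 20 (73.6% of all genes). It was called in the Vc+ library alone at LOXL2 and PCOLCE (4.36% of all genes), and in the Vc- library alone at ITGA2 (2.13%). These 2 and 1 of 34 are near those shares. The top scores at LOXL2 and ITGA2, 3.06 and 3.31, lay below the medians of their lists, 10.3 and 10.0. All 12 hydroxylases and their partners carried H3K4me3 in both conditions, against 77.8% of all genes. Of these, P4HA3, PLOD3 and PPIB had H3K27me3 in both as well, and 3 of 12 is near the 19.9% of all genes. At PLOD3 the covered length, 3.62 kb (Vc+) and 2.02 kb (Vc-), was cut at the outer edge of the window. SERPINH1, the collagen chaperone of the endoplasmic reticulum, had H3K4me3 alone.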

How the data were processed

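H3K27me3 and H3K4me3 were read from 4 deposited island lists, 1 per library, and the 2 inputs were not used. The submitters' processing notes list 3 tools (Bowtie2, SICER, deepTools) and the build under its names hg38 and GRCh38, without saying what each did or with which version. The score of each island is the authors' deposited value, with no unit given; it runs from 2.00 to 309 and then jumps to a cap of 1000, as a −log10 of a false discovery rate would. Scores of this kind depend on depth, so they were compared only within a list, with 1 exception. The alternative with a score of at least 10 set the same cutoff for every list, so its single-condition calls rest on scores of different lists. Reads behind an island are not given in the sources used here. Depth is thus unknown, and exact Clopper-Pearson intervals cover counting error only.

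Coordinates are printed counting from 1, after 1 was added to each deposited start and end. Gene spans, strands and starts came from RefSeq tables of GRCh38.p14, which give no exons, so exonic, intronic and untranslated parts were not told apart. The promoter table matched 30 of 42 members and 15100 of 19122 genes. The most upstream start was used where several are listed. Computed overlaps were compared with those of bedtools 2.31.1. They were also run on the deposited lists with islands planted inside gene windows, which checks the code alone. Python 3.11.15, numpy 2.4.6, pandas 2.3.3, scipy 1.17.1 and matplotlib 3.10.9 were used.

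The members, classes and lists were chosen with earlier results of these data known. Named with coordinates or widths were members whose call differed between conditions, those with the 5 largest covered lengths of either mark, the type I, III, IV, V, XV and XVIII chains, and members with H3K27me3 without H3K4me3. Others were described to account for every member. Of the blood markers, 1 is not reported here. Alternatives covered the flank (0 and 10 kb), gene ends, 5′ ends, a score of at least 10, equal covered length and overlaps of 200 and 1000 bp. For equal covered length the Vc+ lists alone were cut by score. The lowest scores kept were 5.86 for H3K27me3 and 13.75 for H3K4me3. The Vc- lists stayed whole, so this setting could remove islands of the Vc+ libraries only.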

Additional observations from a re-analysis of the deposited data

How the results depend on the processing

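The main window was the gene span with 5 kb on either side. The 18 collagen genes with H3K27me3 in both conditions, the 30 with H3K4me3 in both and the 18 with both marks in the Vc+ pair stayed within 1.5 times of these numbers in each alternative run. The 17 with both marks in the Vc- pair did too, except within 1 kb of the 5′ end, where they were 11, with 30 in place of 42 genes read. The other counts at the 5′ end also came from these 30 genes. Of the 30, the main window had H3K27me3 in both conditions at 13 and H3K4me3 in both at 22. Within 1 kb of the 5′ end the same counts were 12 and 20. Counts of single-condition calls are small and moved more. For H3K27me3, 2 genes in Vc+ alone became 1 (COL25A1) at a score of at least 10, and 1 gene in Vc- alone became 0 within 1 kb of either gene end and of the 5′ end. For H3K4me3, 1 gene in Vc+ alone (COL22A1) became 0 at equal covered length and 2 with at least 1000 bp of overlap. It was also 0 within 1 kb of the 5′ end and of any listed 5′ end (chosen after seeing the data). COL22A1 has no promoter entry, so neither 5′ end setting could read it. The 4 genes in Vc- alone became 2 with a flank of 10 kb and within 1 kb of either gene end, and 1 at a score of at least 10. Of them, COL3A1 has no promoter entry. Among the 30 genes with an entry, 3 were in Vc- alone in the main window. That became 1 within 1 kb of the 5′ end and of any listed 5′ end. At a score of at least 10, H3K27me3 in Vc- alone was still 1 gene, COL19A1 in place of COL21A1. The H3K27me3 scores of COL19A1, 9.15 (Vc+) and 12.85 (Vc-), lie on either side of this cutoff. COL25A1 kept its H3K27me3 call in the Vc+ library alone in all 10 settings, which read the same libraries. Its island covers the start and the nearest Vc- island was 536 kb away, so the window and overlap settings could not change this call. Only the score cutoff and equal covered length could, and its score of 12.9 passed both. No paired analysis was possible because each mark and condition has 1 library. Depth is unknown, so a missing island is not shown to be absence of the mark.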

Other observations

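COL4A5 and COL4A6, the X-linked type IV chains outside the autosomal family read here, also stand head to head. Both had H3K4me3 and no H3K27me3 in either condition. The H3K4me3 island nearest the start of COL4A5 spanned 3.0 kb with Vc (chromosome X, 108439201 to 108442200) and 2.0 kb without (108439201 to 108441200). A second island of 0.8 kb, with the same ends in both libraries (108437601 to 108438400), lay inside COL4A6. This state is that of COL4A1 and COL4A2, and not that of COL4A3 and COL4A4.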
